A study of Mus musculus with 18 samples.

Results

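Stimulated mouse CD8 T cells were set against stimulated type 2 helper T cells (Th2), the 2 effector cell types of the study, in 1 poly-A RNA-seq library each. Genes entered when their mean over the 2 libraries was at least 50 scaled reads, a rule that took 10896 of the 43432 genes in the table. Of these 10896 genes, 824 (7.56%) were at least 2-fold higher in the CD8 library and 1059 (9.72%) were at least 2-fold lower, which is to say higher in Th2. A level below is the deposited value of a gene in a library, in reads divided by 1 factor per library, and a difference is log2(CD8 level + 1) minus log2(Th2 level + 1). With 1 library a side there is no replicate check and no test. The 95% counting intervals given with folds come from the split of the reads between the libraries and cover counting error only, not the spread between cultures.

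Both cultures came from C57BL/6 mice (C57BL/6 J in the study's methods) and, per the labels, grew for 5 days on dishes bearing anti-CD3 and anti-CD28, where the study's methods give 3 days on the coated surface. The Th2 culture was of CD4 T cells with IL-4, an antibody to interferon gamma and IL-2, and the CD8 culture was of CD8 T cells with IL-12 and IL-2, so that cell type and added cytokines cannot be told apart. Both received PMA and ionomycin, a drug pair that imitates signalling from the T cell receptor, 4 h before harvest, and both were irradiated at 254 nm with 8000 mJ before lysis. The resting pair, used below for comparison, was moved to fresh medium without the drugs, and a further 2 pairs, stimulated and resting, had actinomycin D, which blocks transcription. The study's methods list several treatment times, and which of them these libraries had is not given in the sources used here. The study's methods name T cells cultured from 3 mice in the joint protocol for crosslinking and RNA-seq, and do not say how the mice map to the libraries. In bulk RNA, fewer cells of a type and less RNA per cell cannot be told apart.

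CD8 T cells kill infected or transformed cells by releasing perforin and granzymes onto them, and they secrete interferon gamma. Th2 cells direct immunity at barriers, against parasites and in allergy, through IL-4, IL-5 and IL-13, whose genes lie side by side and are switched on under the transcription factor GATA3. Restimulation of either cell type sets off the calcium, NFAT, AP-1 and NF-kB pathways, which turn on cytokine genes within hours.

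The sequences that follow are the 250 bases upstream of the start of 3 cytokine genes higher in Th2 and of 3 genes higher in CD8. The genes higher in CD8 are Ifng, Gzmb and the receptor gene Il18r1. All were picked as examples from this same comparison. The sequences are RefSeq windows on GRCm38.p6, the assembly behind mm10, 5′ to 3′ on the strand of the gene. Capitals mark matches on either strand to 5 words, and matches may overlap. The words were AGATAA for the GATA family, TGANTCA for the AP-1 family and GGAAA for the core of an NFAT site. The other two were GGTGTGA for the T-box family and TTCNNNGAA for the STAT family.
Il4, chr11:53618666-53618915, minus strand: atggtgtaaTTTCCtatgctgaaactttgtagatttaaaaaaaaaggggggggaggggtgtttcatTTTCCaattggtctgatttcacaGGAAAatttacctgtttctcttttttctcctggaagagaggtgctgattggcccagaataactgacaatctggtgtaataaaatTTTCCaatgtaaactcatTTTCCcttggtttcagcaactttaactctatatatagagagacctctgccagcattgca
Il5, chr11:53720544-53720793, plus strand: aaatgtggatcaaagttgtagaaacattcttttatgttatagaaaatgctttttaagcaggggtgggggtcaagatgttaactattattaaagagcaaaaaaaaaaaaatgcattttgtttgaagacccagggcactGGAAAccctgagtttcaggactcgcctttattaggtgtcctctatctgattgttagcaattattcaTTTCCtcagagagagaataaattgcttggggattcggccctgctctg
Il13, chr11:53634703-53634952, minus strand: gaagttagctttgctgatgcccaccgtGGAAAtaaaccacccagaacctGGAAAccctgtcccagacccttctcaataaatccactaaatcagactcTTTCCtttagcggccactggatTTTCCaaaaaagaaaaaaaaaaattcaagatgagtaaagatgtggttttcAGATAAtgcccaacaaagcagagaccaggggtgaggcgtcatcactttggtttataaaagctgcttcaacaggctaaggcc
Ifng, chr10:118440796-118441045, plus strand: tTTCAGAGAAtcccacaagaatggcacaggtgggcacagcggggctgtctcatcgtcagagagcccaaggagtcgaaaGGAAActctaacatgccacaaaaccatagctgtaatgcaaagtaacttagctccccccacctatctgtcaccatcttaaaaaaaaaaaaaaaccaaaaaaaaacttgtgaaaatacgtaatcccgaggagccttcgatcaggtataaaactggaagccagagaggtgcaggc
Gzmb, chr14:56262335-56262584, minus strand: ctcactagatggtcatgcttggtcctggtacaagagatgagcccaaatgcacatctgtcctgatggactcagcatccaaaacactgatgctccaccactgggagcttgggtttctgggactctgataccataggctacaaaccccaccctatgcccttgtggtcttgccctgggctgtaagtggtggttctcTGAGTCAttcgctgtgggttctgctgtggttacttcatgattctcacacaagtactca
Il18r1, chr1:40465302-40465551, plus strand: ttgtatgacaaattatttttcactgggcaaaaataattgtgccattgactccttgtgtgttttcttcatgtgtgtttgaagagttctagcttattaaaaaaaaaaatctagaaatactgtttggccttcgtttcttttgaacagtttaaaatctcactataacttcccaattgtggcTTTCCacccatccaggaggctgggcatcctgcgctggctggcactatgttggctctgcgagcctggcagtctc

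Within these 250 bases Il4 held 5 GGAAA words, Il13 held 4 with 1 AGATAA, and Il5 held 2. Ifng held 1 GGAAA and 1 TTCNNNGAA, Gzmb held 1 TGANTCA and Il18r1 held 1 GGAAA. The start site behind the Gzmb window lies 74 bases from the start of that gene in the deposited table. A 300-base RefSeq window, which adds the first 50 transcribed bases, was found for 8191 of the 10896 genes, among them 597 that were higher in CD8 and 759 that were lower. The AP-1 word was in 8.38% of the windows of genes higher in CD8 and in 8.04% of those lower, beside 4.74% over the 8191 genes and 7.81% over all 32851 RefSeq windows. AGATAA was in 6.70% of the higher and 8.43% of the lower group, beside 6.01% of the genes and 11.2% of all windows. For GGAAA the shares were 57.5% and 57.0%, beside 59.5% and 61.3%, for GGTGTGA they were 3.85% and 3.29%, beside 3.25% and 3.98%, and for TTCNNNGAA 8.21% and 6.06%, beside 7.04% and 8.30%. Windows with 5 or fewer CpG pairs made up 22.6% of the higher group and 19.6% of the lower, beside 8.02% of the genes. A match is a description of letters, not a binding site.

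The labels were checked against lineage genes first. Cd4, the helper coreceptor, stood at 281 in CD8 and 20061 in Th2, and Gata3, the factor that drives the Th2 program, at 68.7 and 10567. Cd8a and Cd8b1, the chains of the CD8 coreceptor, stood at 12771 and 6383 in CD8. In Th2 they were at 1410.1 and 1487, so that Cd8b1 in Th2 was 23.3% of its CD8 level. This share differed widely between genes higher in CD8, from 1.13% for Il18r1 and 2.40% for Klrk1 to 30.8% for Runx3. Cd4 in the CD8 library was 1.40% of its Th2 level, and it was higher there than in the resting CD8 library, where it stood at 25.9. Whether a few cells of the other type were in either culture was not tested. Cd3e, a chain of the T cell receptor complex, was at 4908 and 4479, a difference of 0.13.

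Markers of other cells were mostly near 0. The 5 of 8 B cell markers that passed the minimum were lower in CD8, 4 of them having passed through their Th2 level alone, with Ebf1 at 45.0 and 410.0, and the list summed to 203 in CD8 and 1316 in Th2. Of 9 myeloid markers 1 passed the minimum, Cd68, and the list summed to 133 and 194, with Lyz2 at 0 and 22.7. No mast cell or basophil marker of 6 and no erythroid marker of 4 passed, with sums of 29.6 and 91.7 and of 1.19 and 6.80. Of 5 dendritic cell markers, Flt3 and Itgax passed, through their Th2 level alone, and were lower in CD8, and of 6 stromal markers Pecam1 alone passed, also lower. Klrb1c alone passed among 5 NK cell markers, and Tcrg-C1 alone among 2 gamma delta T cell markers in the table, both through their CD8 level alone, where they were higher. The part of such cells in the differences was not tested. Depth was 24154849 gene reads in CD8 and 25247967 in Th2. Cytosolic ribosomal protein genes held 2.18% of the values in both, and Xist was expressed in both (76861 and 102391) while 4 Y-linked genes were at 0.

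**Figure D1:**
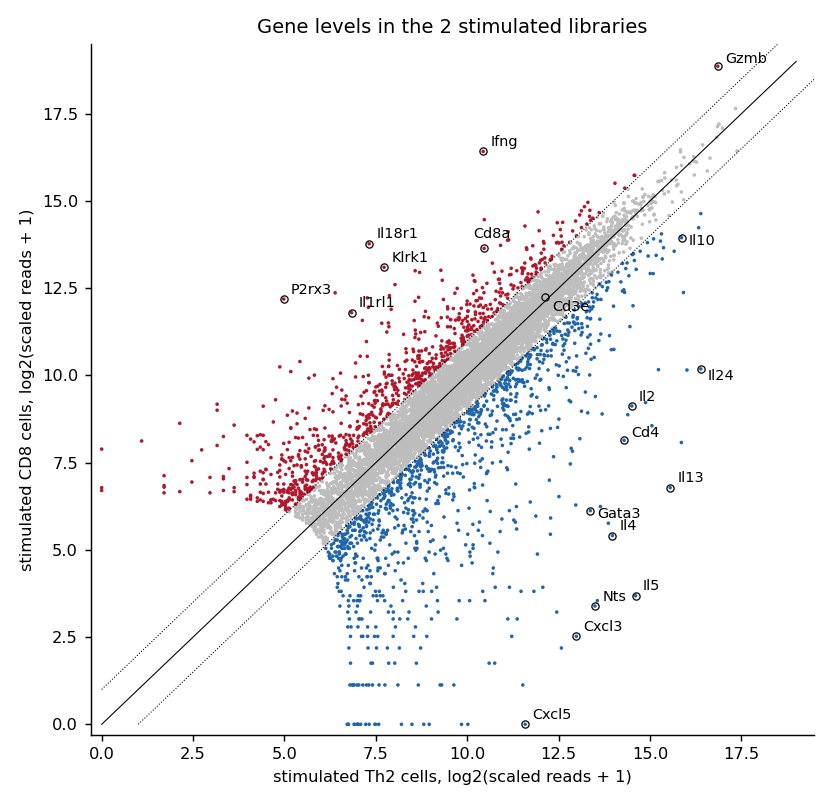
Level of each of the 10896 genes in stimulated Th2 (x axis) against stimulated CD8 (y axis), both as log2(scaled reads + 1), 1 library each. The solid line marks equal levels and the dotted lines 2-fold, red points are the 824 genes higher in CD8 and blue points the 1059 lower; Ifng, Il18r1 and P2rx3 lie far above the lines and Il5, Cxcl3 and Cxcl5 far below.

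The contrast reached further on the Th2 side. At least 4-fold, 248 genes were higher in CD8 and 469 lower. At least 64-fold the counts were 8 and 76. Between these, 7383 genes (67.8%) lay within 1.5-fold, and the median difference over all 10896 was -0.0011. Near the threshold, 101 genes lay within 0.1 above the 2-fold line on the CD8 side and 121 within 0.1 below it, and on the Th2 side 90 and 135. Among the 824 higher genes 213 were under 50 in Th2, and among the 1059 lower genes 340 were under 50 in CD8. Such genes passed the minimum through 1 library alone, which fixed their direction. Protein-coding genes were 94.2% of the higher group and 92.5% of the lower, beside 95.5% of all tested.

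The 3 signature cytokines of Th2 cells set the scale of the lower group. Il5, which recruits and sustains eosinophils, stood at 11.9 in CD8 and 24943 in Th2, a ratio of 2104 (95% counting interval, 1144 to 4389, from 10 and 22023 reads). Il13, which acts on epithelium and smooth muscle, stood at 109 and 48058, 441-fold lower (359 to 547). Il4, which drives the Th2 fate and IgE, stood at 41.5 and 16079, 388-fold lower (279 to 557). All 3 were high in the Th2 library alone, with levels in CD8 at most 0.26% of those in Th2. The share of all tested genes that were at least 2-fold lower was 9.72%. Of the 11 type 2 cytokines and Il10 listed, 9 passed the minimum and were at least 2-fold lower, with a median difference of -6.20. Of these, 4 were under 50 in CD8 and passed through Th2 alone, which fixed their direction, and the 5 that reached 50 in both libraries were lower too. Il24, a cytokine of the IL-10 family, stood at 1164 and 85919.6, and Il21, which helps B cells, at 596 and 30141. Il10, an anti-inflammatory cytokine, differed least of the list, at 15785 and 59617 (3.78-fold lower, 3.71 to 3.85).

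Th2 was also higher in cytokines outside the type 2 set. Il2, the T cell growth factor, stood at 557 in CD8 and 23234 in Th2, 41.7-fold lower (38.1 to 45.8), and was near 0 in both resting libraries, at 10.4 and 17.9. Il3, a growth factor for basophils and mast cells, stood at 226 and 7537, and at 4.15 and 6.23 at rest. Csf2, which encodes GM-CSF, stood at 1112 and 8012. So these differences in Il2 and Il3 were present after stimulation and small before it.

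On the CD8 side Ifng, the gene of interferon gamma, stood at 87665 against 1385 in Th2, 63.3-fold higher (59.8 to 67.0). The type 1 list, of 9 tested genes, had 5 higher in CD8 and 2 lower (Il2 and Csf2), beside 7.56% and 9.72% of all tested genes. Its median difference was 1.94. Lta and Ltb, the lymphotoxin chains, stood at 15158 and 2252 and at 13560.3 and 1927. They sit beside Tnf on chromosome 17, and Tnf itself stood at 9617 and 8507, a difference of 0.18. Tnfsf10, which encodes the death ligand TRAIL, was 4.49-fold higher (4.20 to 4.81), and Fasl, the ligand of the death receptor Fas, 3.85-fold (3.39 to 4.37).

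Granule genes were split. Gzmb, the granzyme that activates caspases in target cells, stood at 476654 in CD8 and 118618 in Th2 and alone took 1.66% and 0.415% of all values in these libraries. Prf1, which encodes perforin, stood at 12517 and 3172, 3.95-fold higher (3.78 to 4.12). Gzmk stood at 577 and 7.93, 72.8-fold higher (35.1 to 182), and overlaps Esm1 on the other strand, which stood at 3808 and 241. Nkg7, a granule membrane protein, and Serpinb9, an inhibitor that shields the killer cell from granzyme B, were 6.73-fold and 6.85-fold higher. Other granule genes went the opposite way. Gzma stood at 5607 and 19971 (3.56-fold lower, 3.45 to 3.68), Gzmd at 45.0 and 350.0, and Srgn, the proteoglycan that packs granules, at 25516 and 85845. Gzmd shares 21.9% of its 50-base words with Gzme, Gzmg and others, so its reads may be divided among them. In all 13 of 27 tested granule genes were higher in CD8 and 6 lower, beside 7.56% and 9.72% of all tested genes. The median difference was 0.88. Among the 23 that reached 50 in both libraries, 11 were higher and 4 lower. Gzmk passed through CD8 alone and Gzmd through Th2 alone, which fixed their direction.

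Killer lectin-like receptors, which read stress ligands and MHC class I on other cells, were higher in CD8, with the receptors listed beside them. Klrk1, which encodes NKG2D, stood at 8768 and 211 (41.6-fold higher), Klrd1, its relative CD94, at 4999 and 233, and Klrc1, an inhibitory partner of CD94, at 2424 and 222. Klrc2 stood at 555 and 20.4. Klrc3 stood at 109 in CD8 and had no read in Th2, at least 32.1-fold higher against 3 reads in that library. Of 16 tested members of this list, which also holds Slamf7, Cd160 and the IL-18 receptor chains, 15 were at least 2-fold higher, beside 7.56% of all tested genes. The other was Cd244 with a difference of -0.06, and the median was 3.27. Of the 9 members that reached 50 in both libraries, 8 were higher, while the other 7 passed through CD8 alone, which fixed their direction. Genes of this family share sequence, with 38.6% of the 50-base words of Klrc1 and 16.3% of those of Klrc2 also in other Klrc genes.

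Among receptors for cytokines, the IL-18 receptor stood out on the CD8 side. The lowest difference of the list was -4.13, that of the interferon gamma receptor chain Ifngr2. Il18r1 stood at 14000 and 159, 88.3-fold higher in CD8 (74.7 to 105), and its partner Il18rap at 7936 and 415. Next to them Il1rl1, the IL-33 receptor and a known marker of Th2 cells, stood at 3563 in CD8 and 113 in Th2, the opposite of its place on the Th2 list. The end of Il1rl1 lies 136 bases before the start of Il18r1 on the same strand, and whether reads of one gene were counted in the other was not tested. Il12rb2, the signalling chain for IL-12, stood at 12906 and 3149. The interferon gamma receptor chains went in opposite directions: Ifngr1 stood at 6640.3 and 1185, and Ifngr2 at 84.2 and 1493. Il4ra, the IL-4 receptor, stood at 3838 and 10836. The list as a whole had 7 of 31 higher and 7 lower, beside 7.56% and 9.72% of all tested genes. Of the 29 that reached 50 in both libraries, 7 were higher and 6 lower.

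Of 24 tested Th2 regulators and receptors, 16 were lower in CD8 and 3 were higher, beside 9.72% and 7.56% of all tested genes. Among the 21 that reached 50 in both libraries, 13 were lower and 3 higher. The remaining lower members, Bhlhe41 and Ccr8 among them, passed through Th2 alone, which fixed their direction. Those lower included Maf, a factor that activates Il4, at 175 and 7236, Bhlhe41 at 7.11 and 842, Pparg at 556 and 3990.1, and Ccr8, a chemokine receptor of Th2 cells, at 14.2 and 4296. Cd40lg, the helper signal to B cells, stood at 468 and 21518. Cyp11a1, the enzyme that starts steroid synthesis, stood at 53.3 and 14879 (279-fold lower, 208 to 383). The 3 that were higher were Il1rl1, Icos (21989 and 8003) and Plac8 (22617 and 1415). On the regulator list for CD8 and type 1 cells, 13 of 23 were higher and 5 lower. Counting only the 22 at 50 or more in both libraries, 12 were higher and 5 lower. Hopx stood at 6782 and 638, Irf8 at 18149 and 4006, and Runx3, which represses Cd4 in CD8 cells, at 7615 and 2348. Tbx21, which encodes T-bet, stood at 5985 and 2903, a difference of 1.04 that was 3.00 at rest, where it stood at 3351 and 417. Those lower included Id2, Zeb2 and Tcf7.

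**Figure D2:**
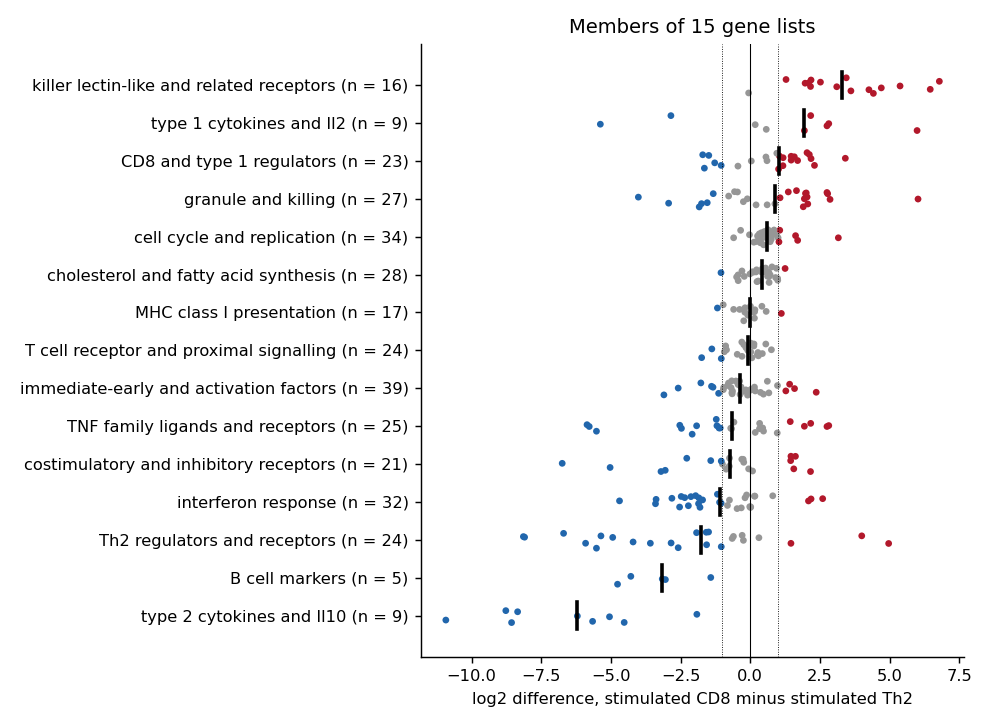
Log2 difference, stimulated CD8 minus stimulated Th2, of the tested members of 15 gene lists (1 point a gene, the number tested beside each name). Black bars are medians, dotted lines mark 2-fold, red points are higher in CD8 and blue lower; the type 2 cytokine points all lie left of the lines and all but 1 of the killer lectin-like points right of them.

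By size of difference alone, among genes with a mean of at least 250, the 15 highest in CD8 held receptors and enzymes as well as the effectors above. P2rx3, a channel opened by extracellular ATP, led with 4667 and 30.6, 153-fold higher (105 to 232). Mmp9, a secreted protease, stood at 5284 and 82.7, Bst1, an enzyme that cleaves NAD, at 512 and 7.93, and Me1, malic enzyme, at 1349 and 41.9. Dclk1 stood at 1213 and 28.3, the secreted ligand Wnt10b at 4778 and 153, and Cd93 at 3963 and 156. Xcl1, a chemokine that draws dendritic cells, stood at 1104 and 35.1, and Ly6c2, a surface protein of memory and effector CD8 cells, at 6222 and 259. The remaining 6 were Il18r1, Gzmk, Ifng, Klrk1, Il1rl1 and Klrc2. Under 50 in Th2 were P2rx3, Bst1, Me1, Dclk1, Xcl1, Gzmk and Klrc2, which passed through CD8 alone, so that their direction was fixed. P2rx3 and Bst1 overlap other tested genes (Ssrp1 and Fbxl5) on the opposite strand.

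The 15 lowest held chemokines, hormones and enzymes beside Il5, Il13 and Il4. Cxcl5, Cxcl3 and Cxcl2, which draw neutrophils, stood at 0, 4.74 and 0 in CD8 and at 3073, 8116 and 919 in Th2. Against 3 reads in the CD8 library, Cxcl5 was at least 864-fold lower and Cxcl2 at least 258-fold. Pth, parathyroid hormone, stood at 1.19 and 2939, from 1 read in CD8, a ratio of 2479 with a counting interval of 445 to 97972. Nts, neurotensin, stood at 9.48 and 11544 (1217-fold lower, 618 to 2821), and Akr1c18, which inactivates progesterone, at 10.7 and 12082. Adamtsl3 stood at 3.56 and 6111, a ratio of 1719 (588 to 8336) from 3 reads in CD8, and Htr1b, a serotonin receptor, at 4.74 and 2382. Rnf152 stood at 8.30 and 5594, and Zbtb7c had no read in CD8 and 1035 in Th2, at least 291-fold lower. Hs3st1, a heparan sulfate sulfotransferase, and Efna5, an ephrin, had 2 reads each in CD8 and stood at 1724 and 1550.5 in Th2, ratios of 727 (201 to 6009.6) and 654 (181 to 5406). In each of these genes the CD8 library held at most 92 reads and the Th2 library at least 811. All but Il13 were under 50 in CD8 and passed the minimum through Th2 alone, which fixed their direction.

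**Figure D3:**
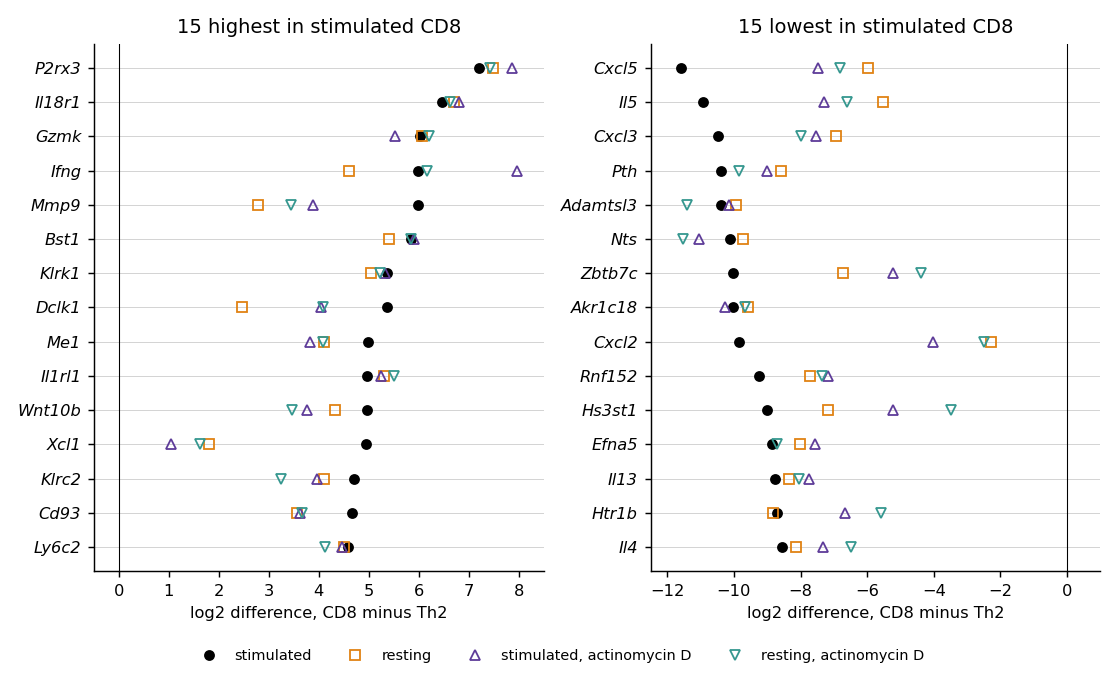
Log2 difference, CD8 minus Th2, of the 15 highest and 15 lowest genes of the stimulated pair (filled circles) with their values in the resting pair and in the 2 pairs with actinomycin D (open symbols), 1 library a side in each pair. All 30 genes keep their sign in the 4 pairs, with Cxcl2 at -9.84 after stimulation and -2.29 at rest.

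Several of the largest differences lay side by side on the chromosome (mm10). On chromosome 11, 53519257 to 53778374, all 7 tested protein-coding genes were at least 2-fold lower in CD8, those between and around the cytokines included, though Il4 and Il5 passed the minimum through their Th2 level alone. Rad50, a DNA repair gene between Il13 and Il5, stood at 1544 and 4393, Kif3a, a motor protein gene next to Il4, at 324 and 3133, Sept8 at 254 and 1994, and Irf1 at 1904 and 10613. Rad50, Kif3a and Sept8 were chosen after their values were seen. Sept8 is an end of the region, so the count of 7 depends on that choice. Kif3a, on the plus strand, ends 1014 bases from the 3′ end of Il4, which lies on the minus strand. The difference of Kif3a was -3.27 after stimulation and -3.60 at rest. On chromosome 5, 90759299 to 91148432, 4 of 11 protein-coding genes passed the minimum, Cxcl5, Cxcl3, Cxcl2 and Areg. Each passed through its Th2 level alone, so that the filter fixed their direction, and Mthfd2l, which did not pass, stood at 54.5 and 34.0. Mthfd2l was chosen after its values were seen. Areg, a growth factor for epithelium, stood at 7.11 and 2641. On chromosome 1, 40074079 to 40551705, the direction turned within 1 family: Il1r2 (429 and 5828) and Il1r1 (46.2 and 225) were lower in CD8, while Il1rl2 (475 and 196), Il1rl1, Il18r1 and Il18rap were higher. Of these, Il1r1 passed the minimum through its Th2 level alone, which fixed its direction. Across the genome, of the neighbours of protein-coding genes higher in CD8, 16.8% were higher too, beside 7.46% of all tested protein-coding genes, and of the neighbours of those lower, 20.8% were lower, beside 9.42%. Overlapping neighbours were left out of these shares, and duplicated gene families count in them.

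**Figure D4:**
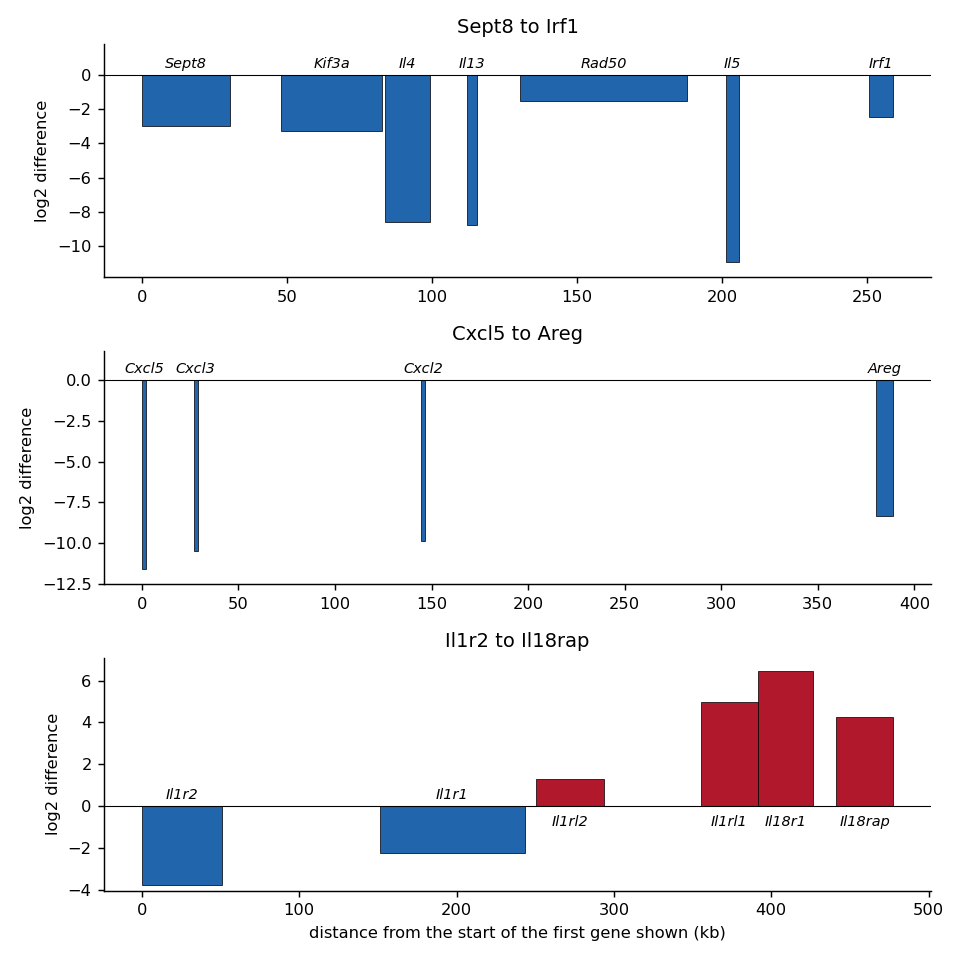
Log2 difference, stimulated CD8 minus stimulated Th2, of the tested protein-coding genes of 3 regions, drawn over each gene's span in kb from the start of the first gene. Blue bars are at least 2-fold lower in CD8 and red bars at least 2-fold higher. All 7 genes from Sept8 to Irf1 are lower, and the Il1r2 to Il18rap region turns from lower to higher. Il4, Il5, Il1r1 and the genes shown from Cxcl5 to Areg passed the minimum through Th2 alone, which fixed their direction.

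Of 10 tested chemokines 4 were higher in CD8, 3 were lower and 3 lay within 2-fold. Over all tested genes 7.56% were higher and 9.72% lower. Only 7 chemokines reached 50 in both libraries, 3 of them higher and 1 lower, and the others passed through 1 library, which fixed their direction. Ccl3 and Ccl4, which attract T cells and monocytes, stood at 19911 and 3060.2 and at 21439 and 6259, against 66.4 and 73.2 and 69.5 and 109 at rest. Ccl22, a ligand of Ccr4, stood at 74.7 and 2603. Among chemokine receptors 2 of 12 were higher in CD8 (Ccr2 at 3689 and 1037, Cxcr6 at 9550.3 and 3049) and 6 lower, with Ccr4 at 239 and 7359. For the 10 receptors at 50 or more in both libraries these counts were 2 and 4. Cxcr3, a receptor of type 1 cells, stood at 869 and 2094 after stimulation, and at 1861 and 732 at rest.

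Surface costimulation genes lay on both sides. Of 25 tested TNF family ligands and receptors 11 were lower in CD8 and 5 higher, among them Tnfsf8, the CD30 ligand, at 1139 and 66095 (58.0-fold lower, 54.4 to 61.9) and Tnfrsf4, which encodes OX40, at 7762 and 32942. Of 21 costimulatory and inhibitory receptors 7 were lower and 5 higher. Both lists stand beside 9.72% lower and 7.56% higher over all tested genes. Btla, an inhibitory receptor, stood at 1708 and 15746, Cd200r1 at 68.7 and 2276, and Havcr1, which encodes TIM-1, at 0 and 106, at least 29.9-fold lower. Cd160 was on the CD8 side, at 489.5 and 109. Ctla4, Pdcd1 and Havcr2 lay within 2-fold, with differences of -0.26, -0.31 and 0.08. Havcr1 passed the minimum through Th2 alone, which fixed its direction. With 50 reached in both libraries, 10 of 24 TNF family genes were lower and 5 higher. For the costimulatory and inhibitory receptors these counts were 6 and 5 of 20.

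Genes that respond early to stimulation included several at like levels. Myc stood at 12367 and 12116, Cd69, an early activation marker, at 4318 and 4287, and Il2ra, the high-affinity IL-2 receptor chain, at 205739 and 166099. Of 39 immediate-early and activation factors 29 (74.4%) lay within 2-fold, beside 82.7% of all tested genes, and 4 were higher and 6 lower, with a median of -0.38. Nr4a2, a nuclear receptor induced by receptor signalling, stood at 2104 and 408, and Atf3, a stress factor, at 558 and 4792. Egr2 stood at 2650.4 and 9064, and Batf, which pairs with IRF4, at 802 and 4826. Among brakes on MAP kinase signalling the members parted: Spry4 stood at 1093 and 212 and Spry1 at 517 and 4529, while Dusp10 stood at 115 and 1370.4 and Rgs3, a brake on G protein signalling, at 7507 and 1142. Of 24 proximal T cell receptor genes none was higher by 2-fold and 3 were lower, Zap70 (2951 and 7683), Cd5 (3171 and 10630.4) and Cd2 (9460.2 and 19468). The other 21 (87.5%) lay within 2-fold, a share near the 82.7% of all tested genes.

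Many interferon response genes were lower in the CD8 library. Of 32 tested members 17 were at least 2-fold lower and 3 higher, against 9.72% and 7.56% of all tested genes, and the median difference was -1.07 where it was 0.15 in the resting pair. Restricted to the 29 at 50 or more in both libraries, 14 were lower and 3 higher. The remaining lower members, Irf7 among them, passed through Th2 alone, which fixed their direction. Irf1, a first responder to interferon gamma, stood at 1904 in CD8 and 10613 in Th2, and at 2393 and 2209 at rest. Irgm1, a GTPase of cell-autonomous defence, stood at 1754 and 10183, and at 2261 and 3185 at rest. Irf7 stood at 36.7 and 392, Irf9 at 786 and 3442, and Stat2 at 439.8 and 2249. Gbp3 (2334 and 385), Gbp7 (3887 and 914) and Irf8 were the 3 higher. STAT and SOCS genes, which carry and brake cytokine signals, had 7 of 18 lower, with Socs3 at 499 and 2831, Socs1 at 277 and 1471 and Stat5a at 6567 and 18877, and 1 higher, Stat4, at 944 and 341. The antibody to interferon gamma in the Th2 culture and the IL-12 in the CD8 culture differ together with these values, and their part was not tested.

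Of 34 cell cycle genes 29 lay within 2-fold. A difference above 0 was found in 31 of them (91.2%), beside 49.9% of all tested genes. The 5 that reached 2-fold were Ccnd1 (109 and 11.3), Ccne1 (3049.9 and 939), Ccnd3 (5454 and 1769), Ccne2 (3547 and 1705) and Rrm2 (10249.6 and 5026). Ccnd1 passed the minimum through CD8 alone, which fixed its direction. The median of the cell cycle list was 0.59 where it was 0.06 at rest. Mki67, a marker of dividing cells, stood at 21757 and 14449 after stimulation and at 54812 and 42114 at rest. Beside the 82.7% of all tested genes within 2-fold, cholesterol and fatty acid synthesis had 26 of 28 (92.9%, median 0.42) and glycolysis and transport 25 of 28 (89.3%, median 0.17). MHC class I presentation had 15 of 17 (88.2%, median 0.0046) and RNA decay regulators 29 of 34 (85.3%, median 0.16), so that these shares lay near that of all genes. All 79 tested ribosomal protein genes lay within 2-fold. The exceptions included the glucose transporter Slc2a3 (26957 and 8926), the oxygen sensor Egln3 (4086 and 23747) and its target Hif1a (17040.4 and 40777).

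The other lists gave small groups, whose counts stand beside 7.56% higher in CD8 and 9.72% lower over all tested genes. Among 13 lipid mediator and steroid genes 7 were lower in CD8, with Ptgir, the prostacyclin receptor, at 67.6 and 1584 and Cysltr1, a leukotriene receptor, at 1026 and 5757, and 2 were higher, Hsd11b1, which activates glucocorticoids, at 495 and 79.3, and Rora. Integrins and homing genes had 2 of 26 higher and 7 lower. Itgb3 stood at 288 and 1945. Only 22 of these reached 50 in both libraries, 2 of them higher and 3 lower. The remaining lower members passed through Th2 alone, which fixed their direction. Galectins, annexins and S100 genes had 4 of 22 in each direction, with Lgals7 at 14.2 and 1741. Lgals7 passed through Th2 alone, and of the 20 at 50 or more in both libraries 4 were higher and 2 lower. Survival and death genes had 4 of 23 higher and 1 lower, and 3 and 1 of the 22 that reached 50 in both libraries. Of 7 tested markers of other helper subsets 4 were lower in CD8, 3 of them having passed through Th2 alone, with Il17a, the Th17 cytokine, at 7.11 and 284 and Foxp3, the regulatory T cell factor, at 5.93 and 112, and 1 was higher, Ikzf2, at 1025 and 236. Of 10 CD4 and CD8 lineage genes 4 were higher and 4 lower.

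Part of the contrast was present without restimulation, a larger share of it on the Th2 side. The 4 pairs share no library, so each gives its own difference for the same 10896 genes. In the resting pair 546 genes (5.01%) were at least 2-fold higher in CD8 and 967 (8.87%) lower. In the pair with stimulation and actinomycin D the counts were 640 (5.87%) and 970 (8.9%), and in the resting pair with the drug 599 (5.5%) and 897 (8.23%). Of the 824 genes higher in stimulated CD8, 404 were also at least 2-fold higher at rest, 49.0% of the stimulated list and 74.0% of the resting list. Of the 1059 lower, 709 were also lower at rest, 67.0% of the stimulated list and 73.3% of the resting one. In all 4 pairs 309 (37.5%) of the higher and 559 (52.8%) of the lower genes passed 2-fold in the same direction. Across genes, which are not independent replicates, the difference in the stimulated pair had a Pearson r of 0.84 with that in the resting pair. Among the 824, 240 lay within 1.5-fold at rest, and among the 1059, 189 did.

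The 10 genes whose difference was most below that of the resting pair, out of genes averaging at least 250 in the 4 libraries without actinomycin D, were mostly cytokines and secreted factors of Th2. They were Cxcl5, Il5, Il2, Il3, Areg, Olr1, Ifi203, Ptgs2, Ggct and Cxcl3, from -5.60 for Cxcl5 to -3.54 for Cxcl3. Il5 stood at 12.4 in resting CD8 and 620.5 in resting Th2, against 11.9 and 24943 after stimulation, so that the gain was in the Th2 library. Ptgs2, which encodes the prostaglandin enzyme COX-2, stood at 52.2 and 1139 after stimulation, and at 0 and 0.78 at rest. Olr1, a scavenger receptor, stood at 58.1 and 1975, and at 4.15 and 10.9 at rest. Ggct, an enzyme of glutathione turnover, stood at 263 and 2351, and at 340.1 and 259 at rest. Ifi203 was level after stimulation, at 1079.8 and 1231, and was higher in CD8 at rest, at 801 and 74.0, and it overlaps Mndal.

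The 10 genes shifted most toward CD8 included several transcription factors. They were Zbtb46, Rxra, Cd4, Nol4l, Asb2, Lta, Mmp9, Xcl1, Nfkbiz and Egr3, from 3.53 for Zbtb46 to 2.92 for Egr3. Rxra, a nuclear receptor partner, stood at 148 in CD8 and 2711 in Th2 at rest and at 2554 and 4039 after stimulation. Nfkbiz, an inducible partner of NF-kB, stood at 189 and 1081 at rest and 2129 and 1535 after stimulation, and Asb2 at 62.2 and 1363 and then 1305 and 2688. Egr3, which follows receptor signalling, stood at 6.22 and 41.3 and then 1053 and 817. In these 4 genes a gap between resting cells was smaller after stimulation. Lta, Mmp9 and Xcl1 instead lay further toward CD8 after stimulation than before it, with Lta at 1081 and 1517 at rest, Mmp9 at 232 and 32.7, and Xcl1 at 5.18 and 0.78.

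**Figure D5:**
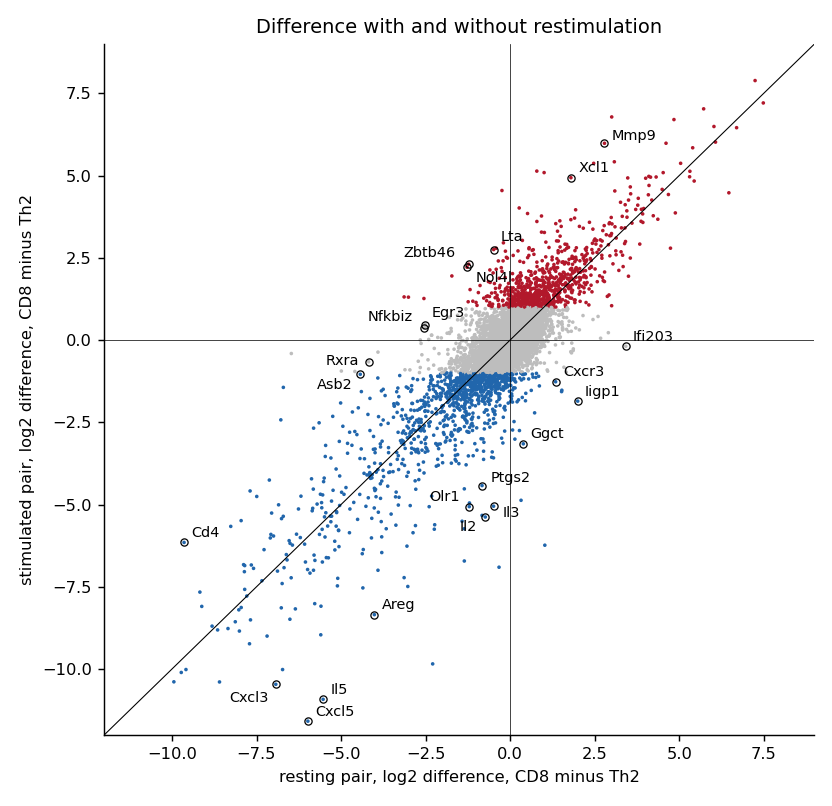
Log2 difference, CD8 minus Th2, in the resting pair (x axis) against the stimulated pair (y axis) for the 10896 genes, 1 library a side in each pair, with the line of equality and the colours of the plot of levels. The named genes are the 10 shifted most in each direction with Cxcr3 and Iigp1; Il5 and Cxcl5 lie below the line at -10.92 and -11.59, and Rxra lies above it at -0.66.

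The peaks of protein-bound RNA in the series were called on all mouse T cell libraries together. They do not show in which cell type or state a gene was bound, nor that a gene without a peak was unbound. Some peaks carry a cell type in their name, the meaning of which is not given in the sources used here. Of 132 tested genes with a peak named for CD8, 9 were higher in CD8 and 6 lower, and of 83 with a peak named for Th2, 3 were higher and 5 lower, beside 7.56% and 9.72% of all tested genes. At least 1 peak was named for 38.8% of the genes higher in CD8 and 47.0% of those lower, beside 59.6% of all tested. The median level of the higher and lower groups was 473 and 419, below the 1007 of all tested genes, and the part of level in these shares was not tested. Ifng, Il13, Il5 and Gzmb had 10 peaks each, Gata3 16, Il18r1 and Cd8a 11 each, and Il4 1.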

How the data were processed

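RNA-seq values are normalised signal: the authors aligned reads to mm10 (STAR and Bowtie2 are named in the submitters' processing notes) and deposited gene read counts, each library divided by its own factor. That unit follows from the numbers, of which 100% were whole multiples of 1 step per library to within 0.01 read whatever the gene's length, while the study's methods speak of FPKM, which these values are not. Libraries were made with a stranded kit, but the counting tool, its annotation and its use of strand are not stated in the sources, and overlapping and antisense genes are therefore uncertain (1978 tested genes overlap another). A second deposited table repeats these values beside fold changes of the authors and was not used. The peak list holds a score per peak that the authors gave on pooled libraries, and only peak names were used.

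Genes with a mean of at least 50 over the stimulated pair were compared as log2(value + 1), with 2-fold as the threshold and no test, since each group has 1 library. Exact (Clopper-Pearson) 95% intervals of the read split were computed with Python 3.11.15, numpy 2.4.6, pandas 2.3.3 and scipy 1.17.1, after a check on simulated data. A fold against 0 reads uses a floor of 3 reads. Depth was 24154849 and 25247967 gene reads. Groups come from the labels. Named genes are the 15 highest and 15 lowest with a mean of at least 250, the members of 36 lists, and the 10 shifted most each way against the resting pair, without predicted gene models and antigen receptor segments. Esm1, Ssrp1, Fbxl5 and Mndal were named after their values were seen, as genes that overlap a named one. Members and lists were chosen with earlier results of these data known. Shared sequence was measured as 50-base words in GENCODE vM21 transcripts. The alternatives were other pseudocounts, minimum means, scalings and folds, the counting interval, and leaving out overlapping genes.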

Additional observations from a re-analysis of the deposited data

Results flagged for a closer look

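For 3 of the named or listed genes the difference between CD8 and Th2 was at least 2-fold in opposite directions in the stimulated and the resting pair. With 1 library in each group the change of direction was not tested. Iigp1, an interferon-induced GTPase, was lower in stimulated CD8 (difference -1.86) and higher in resting CD8 (2.00). Cxcr3 was lower in stimulated CD8 (-1.27) and higher in resting CD8 (1.35). Nol4l was higher in stimulated CD8 (2.21) and lower in resting CD8 (-1.27). Over all tested genes, 8 showed such a change of direction at a mean of at least 50 in both pairs, 6 of them higher in stimulated CD8.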

How the results depend on the processing

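No paired analysis was possible because each side of the comparison is 1 RNA-seq library with no replicate, and the result comes from no test. The numbers of genes at least 2-fold higher and lower in CD8, 824 and 1059, stayed within 1.5 times under both other pseudocounts, the 4 scalings, the counting interval (609 and 828 genes beyond 2-fold with their whole interval) and, an alternative chosen after seeing the data, without genes that overlap another tested gene (699 and 914). They moved with the filter and the fold themselves: with no minimum they were 3240 and 4317, with a minimum mean of 250 they were 501 and 643, at 1.5-fold 1623 and 1890, and at 4-fold 248 and 469. Quantile normalisation gave 936 higher and 954 lower. No named or listed gene past 2-fold changed sign under the pseudocounts and scalings, over 580 genes. Of 34 list medians 1 changed sign under quantile normalisation, that of the myeloid markers, which rests on Cd68 alone. A pseudocount of 10 moved single differences by up to 3.32, since genes near 0 in CD8 depend on it.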
